A study of Mus musculus with 8 samples.

Results

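MHC class II molecules present peptides from swallowed material to CD4+ T cells, and CD80 and CD86 on the same cell give the costimulatory signal. The 10 genes described here encode this machinery: the class II chains H2-Aa, H2-Ab1 and H2-Eb1, the invariant chain Cd74, the transactivator Ciita, the peptide-loading subunits H2-DMa, H2-DMb1 and H2-DMb2, and Cd80 and Cd86. They were taken by symbol from a fixed list that was chosen with earlier results of these data known. All 10 were among the 55357 genes counted and among the 14514 with enough counts to be tested.

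The cells were bone marrow-derived macrophages (BMDM), grown from the marrow of C57BL/6J wild-type mice in M-CSF, the growth factor that directs marrow progenitors to macrophages. Poly(A) RNA was sequenced from 4 control libraries, given the methanol vehicle, and 4 libraries given 2 μM So(d18:1), sphingosine, a long-chain base formed when ceramide is broken down, both for 6 h. The labels name no inflammatory stimulus, while the study's text describes stimulated cells, so whether a stimulus was present is not settled here. The study calls its RNA-seq samples biologically independent, and the sources used here do not say whether they came from separate mice or cultures, so p-values measure the spread between these samples.

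In antigen-presenting cells, class II alpha and beta chains pair in the endoplasmic reticulum around the invariant chain, which fills the groove and directs the complex to endosomes. Proteases there degrade the invariant chain to a remnant, and H2-DM exchanges this remnant for peptide. Transcription of these genes rests on Ciita, a coactivator that does not bind DNA itself but joins the factors RFX, CREB and NF-Y on the X and Y boxes of class II promoters. Macrophages carry little class II at rest and gain it with interferon gamma.

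RefSeq promoter windows, from 250 bases before to 50 after a start site (GRCm38.p6), were matched by symbol for 6 of the 10 genes, with 7 windows in all. The Y box binds NF-Y, and its core GATTGG was searched on both strands, with TGACGTCA, the full cyclic AMP response element, and, as a form of the X box, AAC, any 3 bases and then TGATG. These letters were chosen after the windows had been read. The following 100 bases around a match to GATTGG are shown because they hold the matches to these letters. They run 5′ to 3′ on the strand of the gene, and capitals mark the matches.
H2-Aa, chr17:34287833-34287932, minus strand: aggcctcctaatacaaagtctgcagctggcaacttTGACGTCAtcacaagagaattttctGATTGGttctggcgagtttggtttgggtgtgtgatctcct
H2-Eb1, chr17:34305747-34305846, plus strand: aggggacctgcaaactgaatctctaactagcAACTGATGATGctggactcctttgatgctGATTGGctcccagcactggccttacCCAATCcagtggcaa
H2-DMb1, chr17:34153069-34153168, plus strand: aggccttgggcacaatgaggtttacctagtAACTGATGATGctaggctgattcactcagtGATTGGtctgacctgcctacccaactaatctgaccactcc
H2-DMb2, chr17:34145098-34145197, plus strand: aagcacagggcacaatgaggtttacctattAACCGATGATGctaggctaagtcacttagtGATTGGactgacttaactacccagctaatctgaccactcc

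The match to GATTGG on the strand of the gene began 49 bases upstream of the start site in H2-Aa, 60 in H2-Eb1, 62 in H2-DMb1 and 91 in H2-DMb2. It was preceded by the X-box form at a distance of 18 bases in H2-Eb1 and 19 bases in H2-DMb1 and H2-DMb2, and in H2-Aa by TGACGTCA. H2-Eb1 held a further match downstream of it, CCAATC, the same letters on the other strand. Of all 32851 promoter windows, 16.1% held GATTGG, 0.615% the X-box form, 1.79% TGACGTCA and 0.0822% GATTGG and the X-box form together. The window of Cd80 and one window of H2-DMa held none of these letters, and the other window of H2-DMa held GATTGG alone, 199 bases upstream. A match is a description of the sequence and was not read as a bound site.

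Libraries held 17748397 to 26088609 counts, and replicates of a group differed by more than counting noise, with a chi-square per gene of 2.75 to 11.9. Among control libraries it was 2.75 for replicates 1 and 2 and 3.75 for replicates 3 and 4, against 5.69 to 11.9 for the other pairs. Pairs of So(d18:1) libraries were at 2.83 to 7.56. The macrophage markers Adgre1, which encodes F4/80, and Csf1r, the M-CSF receptor, averaged 2213 and 6234 CPM (counts per 1000000 of the tested genes, scaled by TMM) in control libraries. Of 10 macrophage genes, all tested, Mertk fell (log2 difference -0.38, adjusted p = 6.20e-06), Cd68 fell (-0.22, adjusted p = 0.00349) and Itgam rose (0.18, adjusted p = 0.0119, edgeR), 8 had a lower mean with So(d18:1) and 6 were highest of the control libraries in replicate 3. The summed level of the 10 was 31307 to 33861 CPM in control and 27131 to 32145 CPM in So(d18:1) libraries, and its part in the class II levels was not tested. By edgeR's quasi-likelihood test with Benjamini-Hochberg adjustment over all tested genes, 8.94% of genes had an adjusted p under 0.05, with 3.87% higher and 5.07% lower with So(d18:1). Of the 10 genes, 3 passed, Ciita, Cd80 and Cd86, and all 3 fell. The groups did not overlap in CPM for 7 of the 10, each lower with So(d18:1), against 15.0% of all tested genes in either direction and 7.87% lower. At an unadjusted p under 0.05 with a 1.5-fold difference, 5 of the 10 were past both thresholds, the chains, Cd74 and Ciita, against 3.89% of all tested genes. The median log2 fold change was -0.47 over the 10 genes and 0.0036 over all tested genes. Since the 10 genes were chosen with earlier results of these data known, these comparisons are a description and no test of an excess.

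**Figure D1:**
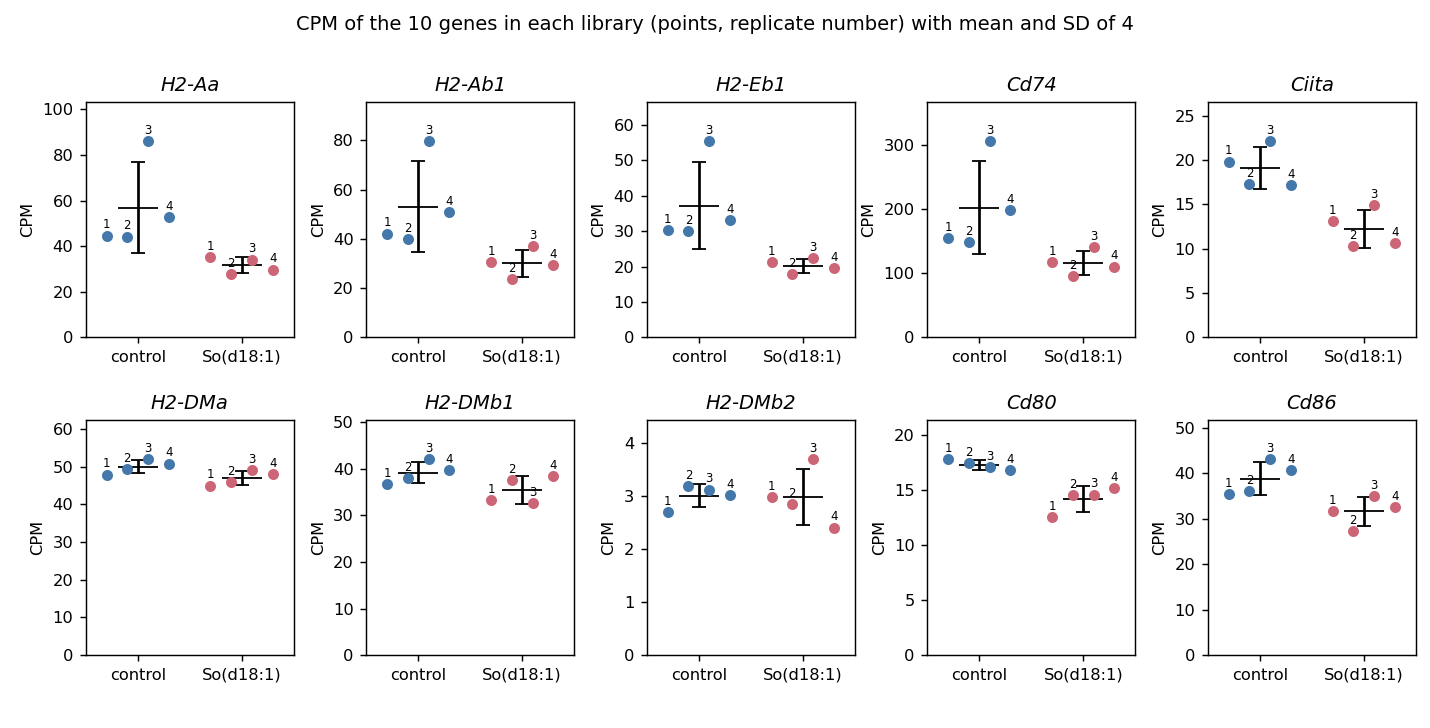
CPM of the 10 genes (vertical axes, each starting at 0) in the 4 control and 4 So(d18:1) libraries, with points numbered by replicate and bars for the mean and SD. The groups are separate for the class II chains, Cd74, Ciita, Cd80 and Cd86, and control replicate 3 stands above its group for the chains and Cd74.

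H2-Aa (ENSMUSG00000036594), on chromosome 17 from 34282744 to 34287823, encodes the alpha chain of I-A, the class II molecule of C57BL/6 mice. Control replicates 1 to 4 held 44.6, 44.2, 86.1 and 52.7 CPM, and So(d18:1) replicates 1 to 4 held 35.2, 27.6, 34.1 and 29.7 CPM. Each So(d18:1) library was lower than each control library, and control replicate 3 lay far above the other 3. Means were 56.9 ± 19.8 CPM in control and 31.7 ± 3.58 CPM with So(d18:1) (SD, n = 4 each), a 0.554-fold level. On the log2 scale the difference was -0.85 ± 0.25 (SE) and did not pass (edgeR, adjusted p = 0.103).

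H2-Ab1 (ENSMUSG00000073421), the beta chain of I-A, spans 34257689 to 34269419 of chromosome 17. Its levels were 42.1, 39.7, 79.6 and 51.0 CPM in control replicates 1 to 4 and 30.5, 23.8, 37.0 and 29.2 CPM in So(d18:1) replicates 1 to 4. The pattern was that of its partner chain, with no overlap of the groups and control replicate 3 highest. The level with So(d18:1) was 0.565-fold that of control, log2 fold change -0.82 ± 0.27 (SE), with edgeR giving an adjusted p = 0.131.

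H2-Eb1 (ENSMUSG00000060586), on chromosome 17 from 34305867 to 34316674, encodes the beta chain of I-E. Its values were 30.2, 30.0, 55.4 and 33.1 CPM in control replicates 1 to 4 and 21.2, 17.9, 22.3 and 19.5 CPM in So(d18:1) replicates 1 to 4. Again the groups did not overlap, and of the 10 genes this one had the lowest fold, 0.542, log2 fold change -0.88 ± 0.23 (SE), with edgeR giving an adjusted p = 0.0719. Its alpha chain partner is disrupted in C57BL/6 mice, so that I-E is not assembled there. That gene, annotated as H2-Ea-ps, had 0 counts in all 8 libraries, where 3 counts would be 0.169 CPM in the smallest library. The beta chain transcript was therefore counted without a transcript of its partner.

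Cd74 (ENSMUSG00000024610), the invariant chain, spans 60803848 to 60812652 of chromosome 18. Control replicates 1 to 4 held 155, 149, 306 and 199 CPM, and So(d18:1) replicates 1 to 4 held 117, 95.3, 141 and 110 CPM. Here too each So(d18:1) library lay under each control library. The 0.573-fold level corresponds to log2 fold change -0.80 ± 0.27 (SE), with edgeR giving an adjusted p = 0.142.

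Ciita (ENSMUSG00000022504), the transactivator encoded between 10480059 and 10528418 of chromosome 16, fell. Its levels were 19.8, 17.3, 22.1 and 17.2 CPM in control replicates 1 to 4 and 13.1, 10.3, 14.9 and 10.6 CPM in So(d18:1) replicates 1 to 4. The groups were separate, and control replicate 3 was again the highest, but by less than for the chains. Means were 19.1 ± 2.36 and 12.2 ± 2.17 CPM (SD over 4 libraries each), log2 fold change -0.65 ± 0.12 (SE), with edgeR's quasi-likelihood test giving an adjusted p = 0.00153. An exon of Ciita overlaps Dexi on the opposite strand, and 1.46% of its 50-base words are shared with that gene. Dexi rose, with a log2 fold change of 0.32, and since the strand setting of the counting is not known, its reads cannot be separated from those of Ciita in the overlap.

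**Figure D2:**
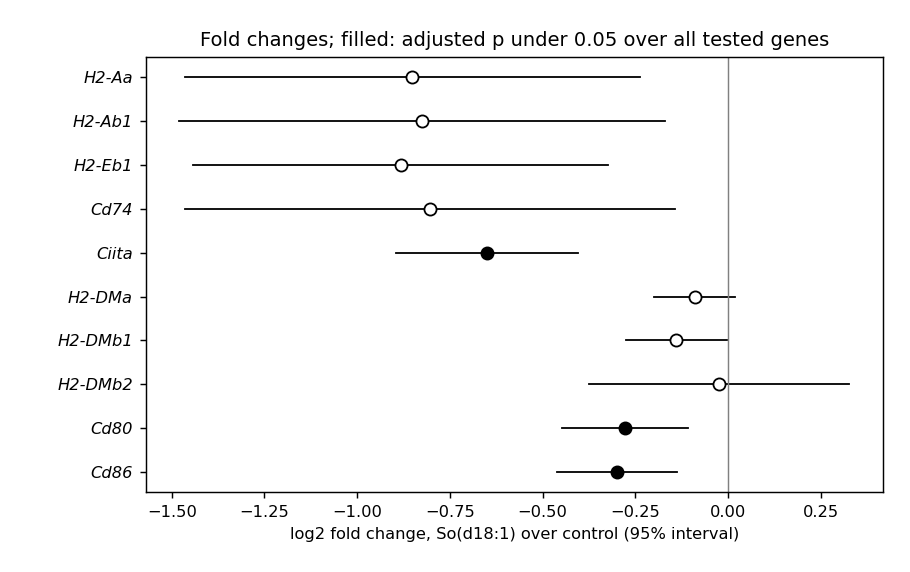
Log2 fold change of So(d18:1) over control (horizontal axis) for each of the 10 genes, with its unadjusted 95% interval from the quasi-likelihood fit. Filled points mark an adjusted p under 0.05: Ciita at -0.65, Cd80 at -0.28 and Cd86 at -0.30, while the class II chains and Cd74 lie between -0.88 and -0.80 with wide intervals.

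The 3 chains and Cd74 moved together across the 8 libraries. Pearson's r of log2 CPM lay between 0.977 and 0.998 over their 6 pairs and between 0.949 and 0.995 after removal of group means. This is a description over 8 libraries that share their depth and handling for all genes. Control replicate 3, the highest library for all 4 genes, enters both ranges, and r was not computed without it. Cd74 per kilobase of the gene length in the deposited table (RPKM) was 7.54 to 9.35 times that of H2-Aa, 5.63 to 6.13 times that of H2-Ab1 and 5.73 to 7.30 times that of H2-Eb1 in every library of either group. In control replicate 3 the 4 genes were at 1.78 to 1.83 times the mean of the other 3 control libraries. Control replicate 4 was the next highest control library for each of the 4 genes. The coefficient of variation among control libraries was 32.9% to 36.0% for these genes, against 12.4% for Ciita and 3.61% for H2-DMa.

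Without control replicate 3 the differences were smaller and their errors shrank. H2-Aa was then at a log2 difference of -0.58 ± 0.084 (SE; edgeR, adjusted p = 0.000217), with the control mean at 47.2 ± 4.72 CPM (SD, n = 3). For H2-Eb1 it was -0.62 (adjusted p = 1.42e-05, edgeR), so that both of these genes passed. H2-Ab1 at -0.56 (adjusted p = 0.0867, edgeR) and Cd74 at -0.53 (adjusted p = 0.164, edgeR) did not pass in that fit. With any of the other 7 libraries left out, none of the 4 passed. No fit left out control replicates 3 and 4 together. By the Wald test of DESeq2 on all 8 libraries each of the 4 passed, with an adjusted p from 0.00331 for H2-Eb1 to 0.0487 for Cd74. Ciita had an adjusted p under 0.05 in all 8 fits, from 0.000253 to 0.00917, at a log2 fold change between -0.75 and -0.57.

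**Figure D3:**
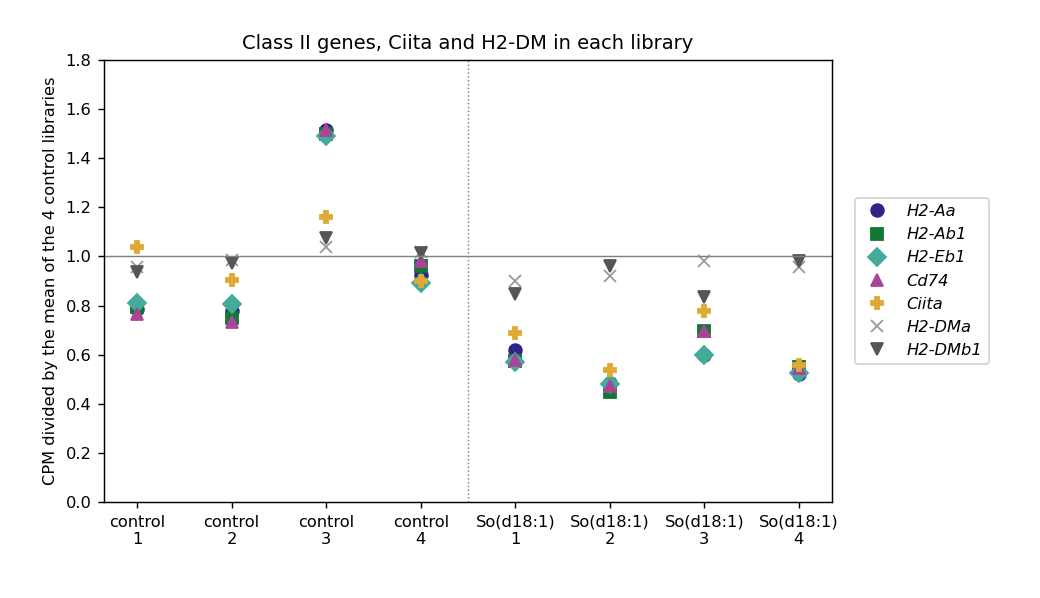
CPM of each gene divided by its mean over the 4 control libraries (vertical axis) in each library (horizontal axis). The chains and Cd74 lie close together in each library and stand highest in control replicate 3, while H2-DMa and H2-DMb1 stay nearer to the control mean in each So(d18:1) library.

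**Figure D4:**
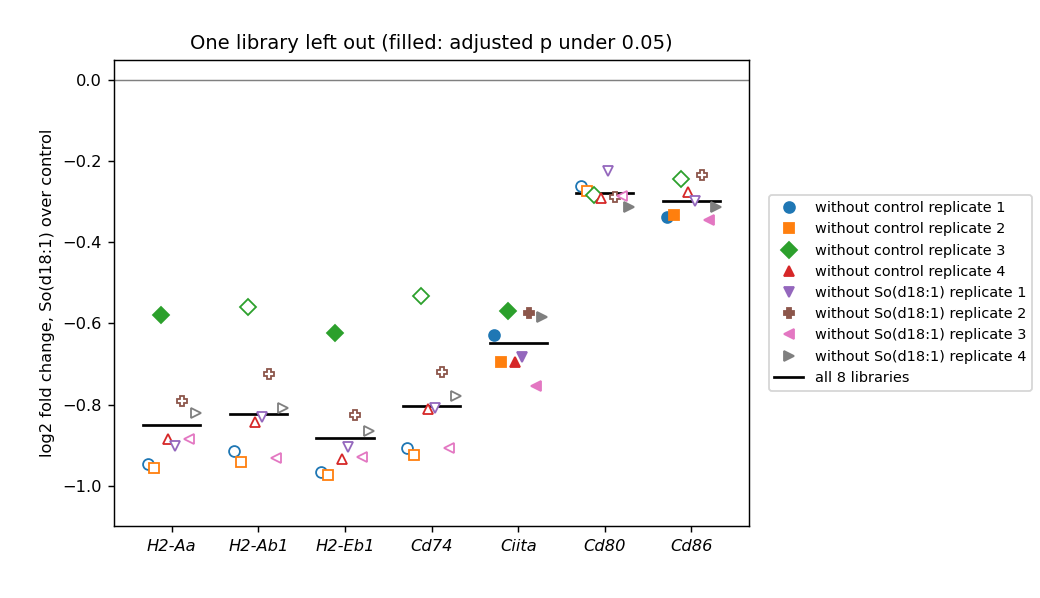
Log2 fold change of So(d18:1) over control (vertical axis) with each library left out in turn (symbols) and with all 8 (lines). Filled symbols mark an adjusted p under 0.05, which H2-Aa and H2-Eb1 reach without control replicate 3 and Ciita reaches in all 8 fits.

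H2-DM, the exchange factor that loads peptide, is built from H2-DMa and a beta chain from H2-DMb1 or H2-DMb2. H2-DMa (ENSMUSG00000037649), on chromosome 17 from 34119541 to 34139101, was at 47.9, 49.3, 52.0 and 50.8 CPM in control replicates 1 to 4 and at 44.98, 46.0, 49.0 and 47.9 CPM in So(d18:1) replicates 1 to 4. The groups overlapped, and the log2 fold change of -0.090 (95% interval from -0.20 to 0.019) did not pass (adjusted p = 0.319, edgeR). An exon of it overlaps Brd2 on the opposite strand, with 8.43% of its 50-base words shared, and Brd2 averaged 290.6 CPM in control libraries, and reads of the overlap cannot be told apart without the strand setting.

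H2-DMb1 (ENSMUSG00000079547), on chromosome 17 from 34153072 to 34160230, was at 36.7, 38.1, 42.1 and 39.7 CPM in control replicates 1 to 4 and at 33.2, 37.6, 32.6 and 38.4 CPM in So(d18:1) replicates 1 to 4. So(d18:1) replicates 2 and 4 lay within the control range, and the log2 fold change was -0.14 (95% interval from -0.28 to -0.0027, adjusted p = 0.204, edgeR). H2-DMb2 (ENSMUSG00000037548), its neighbour from 34143307 to 34151555, was low, at 2.69 to 3.18 CPM in control and 2.41 to 3.70 CPM in So(d18:1) libraries. Its log2 fold change of -0.023 had a 95% interval from -0.37 to 0.33 (adjusted p = 0.955, edgeR), an interval that includes the fitted value of Cd80. H2-DMb1 shares 22.7% of its 50-base words with other genes and H2-DMb2 shares 25.9%, each other among them, and reads of the shared stretches could be assigned to either. With their counts summed, the log2 fold change was -0.13 (adjusted p = 0.203, edgeR).

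The H2-DM genes and the class II chains were thus set side by side in the same libraries. The 95% intervals of H2-DMa and H2-DMb1 reached no lower than -0.20 and -0.28, while the fitted values of the chains and Cd74 were -0.80 or lower with upper bounds of -0.32 to -0.14. The difference between these genes was not tested, and the share of Brd2 reads in the counts of H2-DMa is not known.

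Cd80 and Cd86, whose products both bind CD28 and CTLA-4 on T cells, fell. Cd80 (ENSMUSG00000075122), on chromosome 16 from 38455561 to 38496335, was at 17.8, 17.4, 17.0 and 16.8 CPM in control replicates 1 to 4 and at 12.5, 14.5, 14.6 and 15.2 CPM in So(d18:1) replicates 1 to 4. The control libraries were tight and the groups did not overlap, with means of 17.3 ± 0.443 and 14.2 ± 1.16 CPM (SD, n = 4 each) and log2 fold change -0.28 ± 0.081 (SE), with edgeR giving an adjusted p = 0.0365. Leaving out any of 7 libraries ended its call, with an adjusted p up to 0.106 without So(d18:1) replicate 1. It held without So(d18:1) replicate 4 (adjusted p = 0.0398, edgeR).

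Cd86 (ENSMUSG00000022901), on chromosome 16 from 36603869 to 36666081, was at 35.4, 36.1, 43.1 and 40.6 CPM in control replicates 1 to 4 and at 31.6, 27.3, 34.9 and 32.4 CPM in So(d18:1) replicates 1 to 4. The groups were separate by a small margin, 34.9 against 35.4 CPM, and the log2 fold change was -0.30 (standard error 0.077, adjusted p = 0.0193, edgeR). It lost its call without control replicate 3 (adjusted p = 0.0576), control replicate 4 (adjusted p = 0.0657), So(d18:1) replicate 1 (adjusted p = 0.0504) or So(d18:1) replicate 2 (adjusted p = 0.0790, edgeR). Over the 8 libraries, which share depth and handling for all genes, r of Cd86 was 0.905 to H2-Aa, 0.957 to H2-Ab1 and 0.909 to H2-Eb1, and 0.755, 0.895 and 0.757 after removal of group means. For Cd80 r was 0.601, 0.620 and 0.672 to the same chains, and -0.36, -0.18 and -0.23 after removal of group means. Control replicate 3, the highest library for Cd86 and the chains, enters all of these values.

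Levels of different genes were compared as RPKM, CPM per kilobase of the gene length in the deposited table. That length was 3798 bases for H2-Aa and 1679 for Cd74, and the order of the genes depends on it. In control libraries Cd74 stood highest at 120 ± 43.3 RPKM, followed by H2-DMb1 (23.3 ± 1.38), H2-Ab1 (20.7 ± 7.14), H2-Eb1 (19.1 ± 6.29), H2-Aa (15.0 ± 5.22) and H2-DMa (14.5 ± 0.524), all as RPKM with SD over 4 libraries. Within that run from H2-DMb1 to H2-DMa, neighbours overlapped in their ranges. Below them came Cd86 (10.6 ± 1.00), Cd80 (4.66 ± 0.120), Ciita (2.00 ± 0.248) and H2-DMb2 (1.72 ± 0.124), and the ranges of the last pair overlapped. With So(d18:1) Cd74 was at 69.1 ± 11.3 RPKM and H2-DMb1 at 21.1 ± 1.76, and H2-DMa at 13.6 ± 0.530 now stood above H2-Ab1 (11.7 ± 2.11), H2-Eb1 (10.4 ± 1.01) and H2-Aa (8.34 ± 0.944). The ranges of H2-DMa and H2-Ab1 still overlapped, from 13.04 to 14.2 and from 9.27 to 14.4 RPKM, while that of H2-Aa, up to 9.27, lay below H2-DMa.

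Other genes of class II presentation and costimulation were taken from 6 lists of 80 symbols, of which 78 were in the table and 70 were tested. Of these 70, 4 rose and 5 fell, 12.9% against 8.94% of all tested genes, and their median log2 fold change was 0.010. Among 20 genes for the transcription of class II and its induction by interferon gamma, 2 rose and none fell, 10% against 8.94% of all tested genes. Irf1, an interferon-induced factor that acts on a promoter of Ciita, was at 86.1 to 102 CPM in control and 103 to 117 CPM in So(d18:1) libraries, log2 fold change 0.24 ± 0.055 (SE), with edgeR giving an adjusted p = 0.00693. Ifngr1, the ligand-binding chain of the interferon gamma receptor, rose with 0.15 (adjusted p = 0.0461, edgeR), a call lost when any library but control replicate 2 was left out. The call was also lost with upper-quartile scaling and with at least 10 counts required in every library. Rfx5, which binds the X box, had 0.11 (adjusted p = 0.536, edgeR). The 2 genes of this list that passed were higher and Ciita was lower, and a link between them was not tested.

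None of 8 repressors or silencing factors passed adjustment (edgeR). An unadjusted p under 0.05 was held by 2 of them, against 3393 of all 14514 tested genes, a similar share. H2-Ob and H2-Oa, which form an inhibitor of H2-DM, were at 2.39 to 3.10 and 0.337 to 0.537 CPM in control libraries and did not pass. H2-Eb2, a further beta chain gene, held 0 to 7 counts per library and was not tested.

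Of 15 genes for endosomal processing, 1 rose and 2 fell, 20% against 8.94% of all tested genes. Ctsl, a protease of endosomes and lysosomes that can cut the invariant chain, rose, with means of 1308 ± 59.2 and 1806 ± 94.99 CPM (SD over 4 libraries), log2 fold change 0.47 ± 0.047 (SE), with edgeR giving an adjusted p = 1.25e-06. Ctss, the main protease for the last steps of invariant chain degradation in antigen-presenting cells, was at 1972 ± 113 and 1810 ± 84.0 CPM (SD, n = 4 each) and did not pass (log2 fold change -0.12, adjusted p = 0.118, edgeR). Ctsh, an aminopeptidase, fell with -0.33 (adjusted p = 7.66e-05), and Hvcn1, a proton channel, fell with -0.37 (adjusted p = 0.0100, edgeR).

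Among 11 genes for ubiquitination and traffic of class II, Cd83 fell and no other passed, 9.09% against 8.94% of all tested genes. CD83 protects class II and CD86 from the ubiquitin ligase MARCH1. Cd83 was at 23.2, 22.5, 28.5 and 25.1 CPM in control replicates 1 to 4 and at 13.0, 13.2, 16.1 and 14.2 CPM in So(d18:1) replicates 1 to 4, with no overlap and log2 fold change -0.81 ± 0.089 (SE), with edgeR giving an adjusted p = 2.90e-06. This was a difference of the same order as that of the chains, but with control libraries that lay closer together. Myo1e, a class I myosin, was at 43.2, 43.9, 66.6 and 59.8 CPM in control replicates 1 to 4 and at 28.1 to 37.2 CPM in So(d18:1) libraries, with no overlap, and did not pass (log2 difference -0.68 ± 0.17, SE, adjusted p = 0.0611, edgeR). It passed with at least 10 counts required in every library, with the replicate number as a block, by DESeq2 and without control replicate 1 or control replicate 2. March1 itself was higher in each So(d18:1) library, at 115 to 120 CPM against 93.7 to 115 CPM, and did not pass (log2 fold change 0.17, adjusted p = 0.0629, edgeR).

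Of 14 other costimulatory and coinhibitory ligands that were tested, 1 rose and 2 fell, 21.4% against 8.94% of all tested genes. Vsir, the coinhibitory VISTA, rose, with means of 555 ± 5.74 and 648 ± 21.3 CPM (SD over 4 libraries) and a log2 difference of 0.22 (edgeR, adjusted p = 0.00106). Cd48, a ligand of CD2 and CD244, fell with -0.38 (adjusted p = 6.31e-06), and Sirpa, the inhibitory receptor for CD47, fell with -0.25 (adjusted p = 0.000211, edgeR). Cd40 (log2 fold change -0.26, adjusted p = 0.162) and Cd274, which encodes PD-L1 (0.087, adjusted p = 0.594, edgeR), did not pass.

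**Figure D5:**
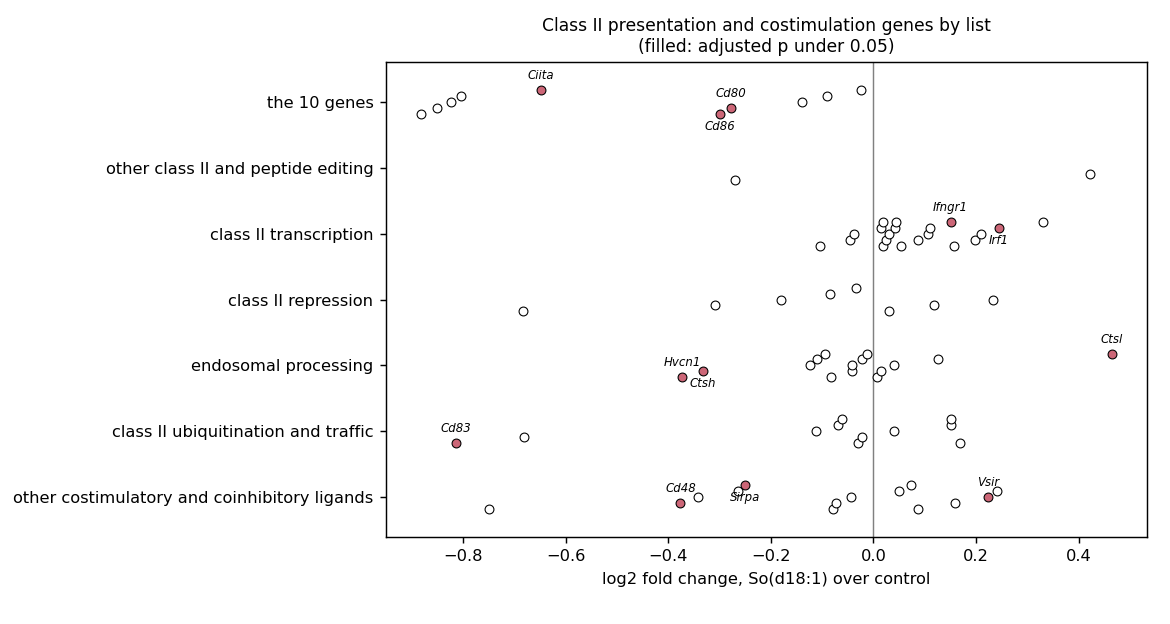
Log2 fold change of So(d18:1) over control (horizontal axis) of each tested gene, by list (rows). Filled points mark an adjusted p under 0.05 and are named: 3 of the 10 genes, all lower, and 9 of the 70 others, with 4 higher and 5 lower.

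The genes whose log2 CPM ran most like the mean of the 3 chains and Cd74, among 14510 others and over 8 libraries, were Map4k3 (r = 0.995), Sik1 (0.988), Gnl3 (0.983), Igf2r (0.982) and Xylt2 (0.981). Ciita ranked 298th with 0.900, and Cd86 121st with 0.935, while of the other listed genes Myo1e ranked 24th and Hvcn1 141st. These values describe libraries that share depth and handling and include the difference between the groups. After removal of group means the top 5 were Stxbp5 (r = 0.989), Map4k3 (0.986), Gpr180 (0.984), Igf2r (0.983) and Nt5e (0.979), with Cd86 at rank 403 (0.835) and Ciita at rank 1261 (0.695). Control replicate 3, the library with the highest class II mean, enters both rankings, which were not repeated without it.

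Markers of other cells that carry class II, or that come from marrow, were examined in the same libraries, since in bulk RNA fewer cells of a type and less RNA per cell cannot be told apart. Of 7 B cell genes, 5 averaged under 1 CPM. All 7 had a lower mean with So(d18:1), and 4 were highest of the control libraries in replicate 3. The sum of the 7 was 17.6 to 20.6 CPM in control and 14.3 to 17.6 CPM in So(d18:1) libraries, mostly Cd79b, which was at 12.9 to 14.2 and 11.2 to 14.5 CPM. Pax5, the B cell identity factor, fell from 0.825 to 1.64 CPM in control libraries to 0.181 to 0.660 CPM (adjusted p = 0.0298, edgeR). Of 10 dendritic cell genes 8 were tested and none passed, and their sum was 25.5 to 34.4 CPM in control and 21.99 to 27.7 CPM in So(d18:1) libraries, with Zbtb46 at most 0.588 CPM and Ccr7 at most 0.272 CPM in any library. The gene with the highest level of the 10 was Itgax, which macrophages also express, at 15.5, 11.5, 20.95 and 15.6 CPM in control replicates 1 to 4 and at 10.9 to 13.8 CPM in So(d18:1) libraries, so that the groups overlapped (adjusted p = 0.140, edgeR). Means were lower with So(d18:1) for 7 of the 10 and higher for Flt3, Xcr1 and Zbtb46, with Flt3 at a log2 difference of 0.51 (adjusted p = 0.126, edgeR), and 2 of the 10 were highest of the control libraries in replicate 3. The 7 neutrophil genes were each highest of the control libraries in replicate 3, their sum of 1093 to 1499 CPM in control libraries did not overlap the 849 to 957 CPM with So(d18:1), and 4 of them fell. The 6 T cell genes together stayed under 1 CPM in each library. The part of such cells in the levels of the class II genes was not tested.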

How the data were processed

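The deposited table gives raw counts for each library by Ensembl gene. Per the labels and the study's methods, Trim Galore 0.6.7 trimmed the reads, HISAT2 2.2.1 aligned them to mm10 and the authors obtained counts with featureCounts 2.0.1. Strand and multi-mapping settings are not given in the sources used here. The deposited table also holds a gene length, a column of other unit, used for RPKM. Columns were matched to libraries by name. GENCODE release 21 for mouse (GRCm38) gave symbols to 52081 of 55357 identifiers.

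The test was that of edgeR 4.0.16 under R 4.3.3 (filterByExpr, TMM, robust quasi-likelihood F test, Benjamini-Hochberg over 14514 genes). Standard errors (SE) were derived from the log2 fold change and F. Log2 CPM used a prior count of 2. The alternatives were other scalings and filters, the replicate number as a block, DESeq2 1.42.0, limma-voom (limma 3.58.1), a fold change of 1.5 at an unadjusted p under 0.05, summed H2-DMb counts and each library left out. The fit was checked on simulated counts. Figures were drawn with matplotlib 3.10.9.

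The 10 genes and all lists were chosen with earlier results of these data known. All 10 were named, as were, in each other list, genes with an adjusted p under 0.05, H2-Ea, and the 5 genes most like the class II mean; further genes named were chosen after their values were seen. H2-Ea, Marchf1 and Marchf8 were found as H2-Ea-ps, March1 and March8. The lists and markers were written by hand. Sequence sharing was measured over words of 50 bases from all transcripts, on either strand.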

Additional observations from a re-analysis of the deposited data

Results flagged for a closer look

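Of 160 groups of 4 libraries examined over the tested genes of the lists, 6 held a library that stood apart from the other 3 by Dixon's ratio of its gap to the whole range, where chance gives about 8, or 1 in 20. H2-Eb1 had a ratio of 0.838 in control libraries, with control replicate 3 at a log2 CPM of 5.79 against 4.91 to 5.05 in the others. In the same group Cd82 had 0.848, with control replicate 3 at 5.57 against 5.45 to 5.47. Control replicate 4 stood apart for Ctsl (0.870, at 10.25 against 10.37 to 10.39) and for Ap1m1 (0.886, at 6.02 against 5.92 to 5.93). Among So(d18:1) libraries, the ratio was 0.932 for March8, with replicate 2 at 5.94 against 6.09 to 6.10, and 0.841 for Cd274, with replicate 3 at 5.04 against 4.83 to 4.87.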

How the results depend on the processing

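Of the 10 genes, 3 passed under each other scaling and filter and with limma-voom (Ciita, Cd80 and Cd86 each time). The count was 7 by the Wald test of DESeq2, which added the 3 chains and Cd74, 5 at an unadjusted p under 0.05 and 1.5-fold or more (the chains, Cd74 and Ciita), and 1 to 3 with one library left out. With the replicate number as a block it was 6, adding H2-Ab1, H2-Eb1 and Cd74. Over all tested genes, deviations of same-numbered libraries from their group means had r from -0.0035 to 0.10. Of the 8 libraries only control replicate 2 and So(d18:1) replicates 2 and 3 correlated best with their own number. The mean log2 CPM of the chains and Cd74 was highest in replicate 3 of either group, 6.70 in control and 5.48 with So(d18:1). It was lowest in replicate 2, at 5.73 and 5.03. With the block, edgeR gave H2-Ab1 -0.79 ± 0.078 (SE, adjusted p = 1.86e-06), H2-Eb1 -0.84 ± 0.10 (adjusted p = 0.000103) and H2-Aa -0.81 ± 0.17 (adjusted p = 0.0583). Whether same-numbered libraries were paired is not stated in the sources used here. The block moved the count over all tested genes from 1298 to 1784. That count was 564 by the p and fold thresholds and 815 to 1370 with one library left out (815 without So(d18:1) replicate 2), and the count of 9 other pathway genes became 2 by those thresholds. The sign of H2-DMb2 reversed without control replicate 2 and without So(d18:1) replicate 4, in a range of -0.14 to 0.075 with one library left out. At 53 to 80 counts per library, H2-DMb2 had the fewest counts of the 10 genes. The causes were not tested.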
